A study of Mus musculus with 12 samples.

Results

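The genes described here are 46 mouse genes of the interferon response and of antigen presentation on MHC class I, chosen by name from an earlier reading of these data and not by a threshold. All 46 were found among the 55401 gene rows of the count table, and all 46 were among the 21958 genes that passed the filter on low counts. They comprise 5 sensors of foreign nucleic acid, 6 transcription factors and feedback genes, 17 antiviral effectors, 5 PARP and ubiquitin ligase genes, 6 interferon-inducible GTPases and 7 genes of class I presentation. The RNA was from male mice, medial prefrontal cortex, taken 2 weeks into extinction of a conditioned place preference, the training in which a learned liking for a drug-paired chamber is lost. In 1 group of 4 libraries the mice had an adeno-associated virus (AAV) with a scramble sequence and saline, in another the same scramble virus and morphine, and in the last an AAV that knocks down the serotonin receptor 5-HT6R and morphine. All groups therefore carried a viral vector and none was free of injection, there was no group with knockdown and saline, and the labels used here give no promoter for the vectors, no strain and no age.

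In the interferon response, cytosolic sensors such as RIG-I detect foreign RNA and induce type I interferons. These act through their receptor and the JAK kinases on a factor complex that includes STAT2 and IRF9 and binds interferon-stimulated response elements (ISRE), which switches on genes that block viral replication. The immunity-related and guanylate-binding GTPases and the class I pathway respond strongly to interferon gamma as well. Class I molecules show peptides, cut by the immunoproteasome and carried by the TAP transporter, to T cells; in brain tissue microglia and endothelium are the usual main sources.

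Library totals ran from 41483220 to 65739423 counts, and levels are given as CPM, counts relative to library size after TMM scaling. The labels do not tie libraries to individual animals; p-values therefore reflect the spread of these samples alone, part of which may be technical. Htr6, the gene of 5-HT6R, ran over 4.35 to 7.98 CPM in scramble saline libraries, 4.82 to 5.58 in scramble morphine and 3.82 to 5.46 in knockdown morphine ones. Among the morphine groups its log2 fold change in knockdown was -0.13 ± 0.18 (SE; edgeR adjusted p = 0.823), a difference smaller than the spread between libraries. Neuron, astrocyte and oligodendrocyte markers were detected in every library. An rRNA locus took 2.38 to 9.38% of counts, most in knockdown replicate 1.

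Promoter windows are printed for 4 members that the results below turn on: Ifit1 and Isg15, effector and feedback genes whose levels spanned the libraries widely, and B2m and H2-K1, the genes of the class I complex itself. Each is the 250 bases before the annotated start, 5′ to 3′ on the strand of the gene, from RefSeq (GRCm38.p6). Capitals mark the ISRE core TTTCNNTTTC on either strand, the short form of the element that the interferon-activated factor complex recognises. Ifit1 lies at chr19:34640639-34640888 on the plus strand, Isg15 at chr4:156200819-156201068 on the minus strand, B2m at chr2:122147437-122147686 on the plus strand and H2-K1 at chr17:34000348-34000597 on the minus strand.
Ifit1: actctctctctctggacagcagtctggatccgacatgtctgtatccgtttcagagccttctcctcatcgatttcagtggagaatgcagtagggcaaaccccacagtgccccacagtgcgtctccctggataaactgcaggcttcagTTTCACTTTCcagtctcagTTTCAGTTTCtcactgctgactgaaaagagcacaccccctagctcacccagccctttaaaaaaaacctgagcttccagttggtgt
Isg15: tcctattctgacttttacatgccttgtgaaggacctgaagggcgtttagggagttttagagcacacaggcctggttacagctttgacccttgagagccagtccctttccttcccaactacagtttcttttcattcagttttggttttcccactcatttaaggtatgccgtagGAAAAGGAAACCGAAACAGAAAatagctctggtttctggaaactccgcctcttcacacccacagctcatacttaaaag
B2m: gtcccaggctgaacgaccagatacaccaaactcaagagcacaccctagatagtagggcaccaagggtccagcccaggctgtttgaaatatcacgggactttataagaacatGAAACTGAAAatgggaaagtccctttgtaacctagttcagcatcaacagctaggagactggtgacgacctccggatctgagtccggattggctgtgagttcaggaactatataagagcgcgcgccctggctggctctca
H2-K1: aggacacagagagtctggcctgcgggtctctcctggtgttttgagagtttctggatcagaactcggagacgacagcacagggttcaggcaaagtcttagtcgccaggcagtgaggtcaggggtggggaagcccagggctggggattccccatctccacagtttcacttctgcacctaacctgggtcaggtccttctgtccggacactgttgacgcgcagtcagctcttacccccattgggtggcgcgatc
The Ifit1 window held 2 matches, which began 104 and 85 bases before the start. In Isg15, 3 matches overlapped one another and began 78, 72 and 66 bases before it. B2m held 1, at 139 bases, and H2-K1 held none, which says only that these letters are not in this window. Windows were given for 36 of the 46 members, and 15 of those 36 (41.7%) held the ISRE core, beside 936 of 27025 genes (3.46%) over the whole promoter table. Among other interferon-stimulated genes, a list taken up below, it was in 19 of 41 (46.3%). By role, all 5 of the GTPases with a window held it, 6 of 14 antiviral effectors and 2 of 5 factors and feedback genes. It was in 1 of 3 PARP and ligase genes, 0 of 3 sensors and 1 of 6 class I presentation genes, which was B2m. A second motif searched on both strands, the gamma-activated site core TTCNNNGAA, which can overlap the first, was in 8 of 36 members (22.2%; Eif2ak2, Irf1, Ifit2, Oas1a, Bst2, Gbp7, Igtp and Psmb8) and in 8.13% of all genes.

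The 46 genes varied widely among the libraries of a group. The standard deviation of log2 CPM within a group had a median over the members of 0.63 in scramble saline, 0.34 in scramble morphine and 0.66 in knockdown morphine libraries, beside 0.20, 0.18 and 0.26 over all genes tested. Scramble saline replicate 4 held the highest of the 12 values for 40 members (87%), beside 8.79% of all genes tested. Scramble morphine replicate 1 held it for 4 (8.7%, beside 6.38%) and knockdown replicate 3 for 2 (4.35%, beside 9.69%). Scramble saline replicate 4 and knockdown replicate 3 were together the 2 highest libraries for 35 of 46 members (76.1%), and for 815 of 21958 genes (3.71%) overall. Without scramble saline replicate 4 the median standard deviation in its group was 0.19, beside 0.16 over all genes tested. Without knockdown replicate 3 it was 0.41 in that group, beside 0.25. Both were left out because they were high, so a lower spread among the members was bound to follow. The lowest value lay in knockdown replicate 2 for 18 members and in knockdown replicate 5 for 12. The share of all genes with their lowest value in these libraries was not counted. Because the tissue was measured in bulk, more responding cells and more RNA per cell cannot be told apart.

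**Figure D1:**
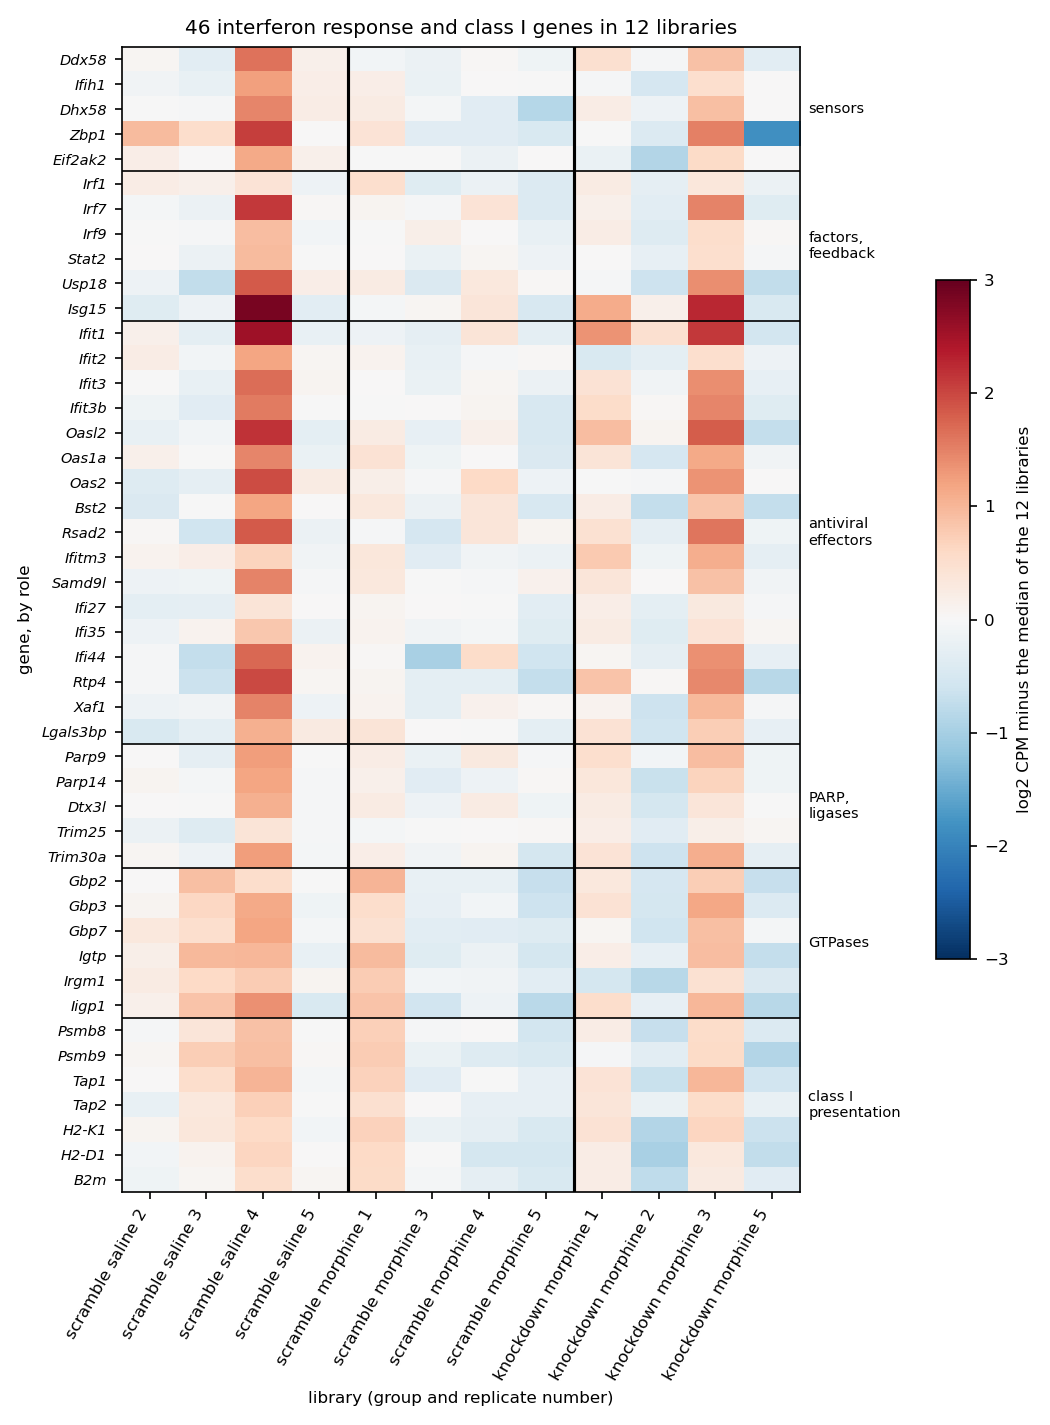
Each row is 1 of the 46 genes, ordered by role, and each column 1 of the 12 libraries; the colour is log2 CPM minus the median of the gene over the 12 libraries. The columns of scramble saline replicate 4 and knockdown morphine replicate 3 are the 2 highest for 35 genes, and the GTPase and class I rows at the bottom are also high in scramble morphine replicate 1.

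In the sentences that follow, values are listed in the order of scramble saline replicates 2, 3, 4 and 5, scramble morphine replicates 1, 3, 4 and 5, and knockdown morphine replicates 1, 2, 3 and 5. Among the sensors, Ddx58, which encodes RIG-I, stood at 12.9, 10, 38.3 and 13.9 CPM, then 11.8, 11.1, 12.7 and 11.4, then 17.4, 12.2, 23 and 10. Zbp1, a sensor of Z-form nucleic acid, stood at 4.58, 3.45, 10 and 2.39 CPM, then 3.18, 1.89, 1.88 and 1.72, then 2.36, 1.79, 6.78 and 0.659. All 5 sensors, with Ifih1 (MDA5), Dhx58 (LGP2) and Eif2ak2 (the kinase PKR), were highest in scramble saline replicate 4 and second in knockdown replicate 3. The groups overlapped for every sensor. Dhx58 has an antisense gene that shares exon bases, and whether counting used the strand is not given in the sources used here.

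Of the transcription factors and feedback genes, Irf7, the factor that amplifies type I interferon production, had the levels 11.6, 10.6, 52.5 and 12.3 CPM, then 12.7, 11.8, 15.9 and 9.10, then 13.3, 9.67, 34 and 9.36. It was 4.57 times the mean of the other saline libraries in scramble saline replicate 4 and 3.16 times the mean of the other knockdown libraries in knockdown replicate 3. Usp18, which shuts off receptor signalling and removes ISG15 from proteins, stood at 4.60, 3.09, 18.4 and 5.90 CPM, then 6.11, 3.81, 6.45 and 5.27, then 5.01, 3.33, 13.5 and 3.06. Isg15, the ubiquitin-like modifier, had the widest range of all members after Zbp1, at 4.28, 4.97, 39.6 and 4.43 CPM, then 5.32, 5.69, 7.10 and 3.94, then 11.9, 6.07, 26.5 and 4.04. In these 3 genes scramble saline replicate 4 and knockdown replicate 3 were highest and the remaining libraries of the groups overlapped. Stat2 and Irf9, the partners in the ISRE-binding complex, were higher in the same libraries by less: 90.1 CPM for Stat2 in scramble saline replicate 4 and 66.1 in knockdown replicate 3, and 39.3 to 48.6 elsewhere. Irf1, a factor with a gamma-activated site in its window, ran only from 8.94 to 16.8 CPM, with its highest value in scramble morphine replicate 1. Irf7 shares exon bases with Phrf1 on the opposite strand and Irf9 with Rnf31 on its own, so their counts are uncertain.

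The antiviral effectors other than Ifitm3 were highest in the same libraries. Ifit1, which binds viral RNA that lacks a normal cap, stood at 13.4, 9.81, 69.4 and 10.3 CPM, then 10.7, 9.95, 15.7 and 9.72, then 30.3, 16.7, 52.1 and 8.20. Its scramble saline replicate 4 was 6.23 times the mean of the other saline libraries, and knockdown replicate 1 came next after knockdown replicate 3. Ifit3, of the same gene family, stood at 36.2, 31.4, 117 and 38.5 CPM, then 36.6, 31.6, 37.9 and 32.2, then 48.9, 33.6, 96.4 and 30.5. Oasl2, of the oligoadenylate synthetase family, stood at 21.6, 23.9, 114 and 20.7 CPM, then 29.8, 21.2, 28 and 18.1, then 48.1, 26.6, 88.1 and 15.4. For Ifit1, Ifit3 and Oasl2 alike, the scramble morphine libraries overlapped the other 3 saline libraries. Bst2, or tetherin, which holds budding virions at the cell surface, stood at 12.6, 17.1, 39.2 and 17.2 CPM, then 21.4, 15.1, 22.2 and 12.2, then 20.1, 10.5, 30.3 and 10.4. Of the 17 effectors, 16 had scramble saline replicate 4 and knockdown replicate 3 as their 2 highest libraries. The exception was Ifitm3, a membrane protein that blocks virus entry, which was highest in knockdown replicates 3 (38.8 CPM) and 1 (31.4 CPM) and stood at 28.9 CPM in scramble saline replicate 4.

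The size of the step differed among members. In scramble saline replicate 4 against the mean of the other saline libraries, Isg15 had a ratio of 8.68, Oasl2 5.16, Rtp4 4.44, Oas2 and Rsad2 (viperin) 4.22 each and Ifi44 3.74. Ifi27 had a ratio of 1.47 and Ifi35 of 1.85. In knockdown replicate 3 against the mean of the other knockdown libraries, Isg15 had a ratio of 3.61, Rsad2 2.94, Oasl2 2.93 and Ifit1 2.83, and Ifi27 1.25. Each of these genes has a level in a bulk tissue that differs from the others: per kilobase of exon, the mean over the 12 libraries ran from 0.777 CPM for Ifi44 to 203 CPM for B2m. The Ifit genes lie together on chromosome 19, from 34550694 (Ifit2) to 34650009 (Ifit1), and the longest transcripts of Ifit3 and Ifit3b are 98% identical over 1697 aligned bases, so the split of reads between those 2 genes is uncertain. Ifit3b gave 57.8 CPM in scramble saline replicate 4 and 53.4 in knockdown replicate 3, against 13.9 to 28.4 elsewhere, and so stood apart in the same 2 libraries.

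The PARP and ubiquitin ligase genes showed the same libraries on top with smaller steps. Parp14, an ADP-ribosyltransferase, stood at 16.1, 14.6, 34.4 and 15 CPM, then 16.9, 12, 13.8 and 15.5, then 19.2, 9.67, 24.2 and 14. Trim25, the ligase that activates RIG-I, ran from 12.2 to 20.9 CPM and was the only one of the 5 genes without knockdown replicate 3 in second place. Parp9 and Dtx3l, which encode partners in 1 complex, share exon bases on opposite strands and their counts cannot be fully separated.

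**Figure D2:**
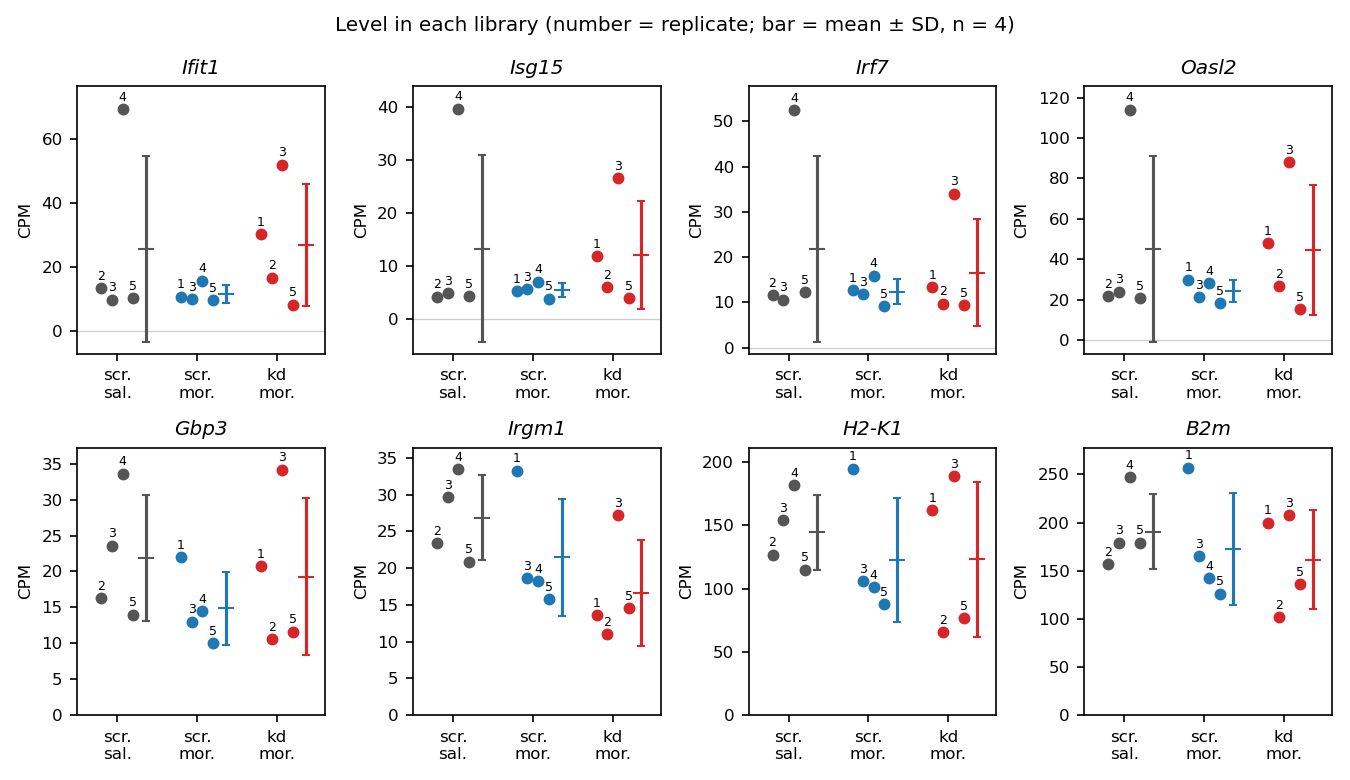
CPM of 8 members in each library, by group (scr. sal., scramble and saline; scr. mor., scramble and morphine; kd mor., knockdown and morphine), with the replicate number above each point and the mean ± SD (n = 4) as a bar beside the points. In Ifit1, Isg15, Irf7 and Oasl2 saline replicate 4 and knockdown replicate 3 are the 2 highest libraries, with knockdown replicate 1 next in Ifit1, Isg15 and Oasl2, whereas for Irgm1, H2-K1 and B2m scramble morphine replicate 1 is as high as or nearly as high as saline replicate 4.

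The GTPases and the class I genes were spread over more libraries. Gbp3, a guanylate-binding protein, stood at 16.3, 23.6, 33.6 and 14 CPM, then 22, 13.0, 14.5 and 10, then 20.7, 10.6, 34.2 and 11.6. Irgm1, an immunity-related GTPase that acts in autophagy, stood at 23.4, 29.7, 33.5 and 20.9 CPM, then 33.3, 18.6, 18.2 and 15.8, then 13.6, 11.0, 27.2 and 14.6. Here scramble saline replicate 3 and scramble morphine replicate 1 joined the high libraries. In Gbp2 the highest value, 31.5 CPM, was in scramble morphine replicate 1 and the second, 28.9, in scramble saline replicate 3, with 22.2 in scramble saline replicate 4. Scramble saline replicate 4 and knockdown replicate 3 were the 2 highest for 3 of 6 GTPases (Gbp3, Gbp7 and Iigp1) and 2 of 7 class I genes (Tap1 and Tap2). The exons of Igtp overlap those of Irgm2 on the same strand, so Igtp is uncertain. Rtp4, Parp14 and Gbp7 also share exon bases with a gene on the same strand. Eif2ak2, Irf1, Usp18, Ifi35, Gbp2, Psmb8 and Tap2 share them with genes on the opposite strand. The counts of all these genes are uncertain to that extent.

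In the class I pathway, Psmb8, a catalytic subunit of the immunoproteasome, stood at 11.3, 14.9, 21.3 and 11.5 CPM, then 18.9, 11.3, 11.7 and 7.95, then 13.6, 7.21, 17 and 8.70. H2-K1, a class I heavy chain, stood at 127, 154, 182 and 115 CPM, then 195, 106, 101 and 87.9, then 162, 65.7, 189 and 76.9. B2m, the light chain of every class I molecule, stood at 157, 179, 247 and 179 CPM, then 257, 165, 142 and 126, then 200, 102, 208 and 136. For each of these 3 genes the 3 highest libraries were scramble saline replicate 4, scramble morphine replicate 1 and knockdown replicate 3, 1 from each group. H2-D1, the other heavy chain in the set, ran from 93.6 to 287 CPM; its longest transcript is 90.8% identical to that of H2-K1 over 1580 aligned bases, so reads may be split between them. Psmb9 and Tap1 are divergent neighbours on chromosome 17 that share exon bases on opposite strands.

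These library positions were summarised by role as the median log2 deviation of a library from the median of the 12. Scramble saline replicate 4 stood at 1.49 for the antiviral effectors, 1.45 for the sensors, 1.39 for the factors and feedback genes, 1.17 for the PARP and ligase genes, 1.06 for the GTPases and 0.73 for class I. Knockdown replicate 3 stood at 1.13, 0.89, 0.96, 0.67, 0.92 and 0.55 in the same order. Scramble morphine replicate 1 was at 0.10 for the effectors, 0.81 for the GTPases and 0.68 for class I, and scramble saline replicate 3 at -0.21, 0.73 and 0.35. The ordering of the libraries thus differed between the effectors on one side and the GTPases and class I genes on the other; this is a description of 12 libraries and was not tested. Scaling by DESeq2 size factors or by library totals alone moved the position of scramble saline replicate 4 over all 46 genes from 1.18 to at most 1.21 and that of knockdown replicate 3 from 0.90 to no less than 0.87.

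**Figure D3:**
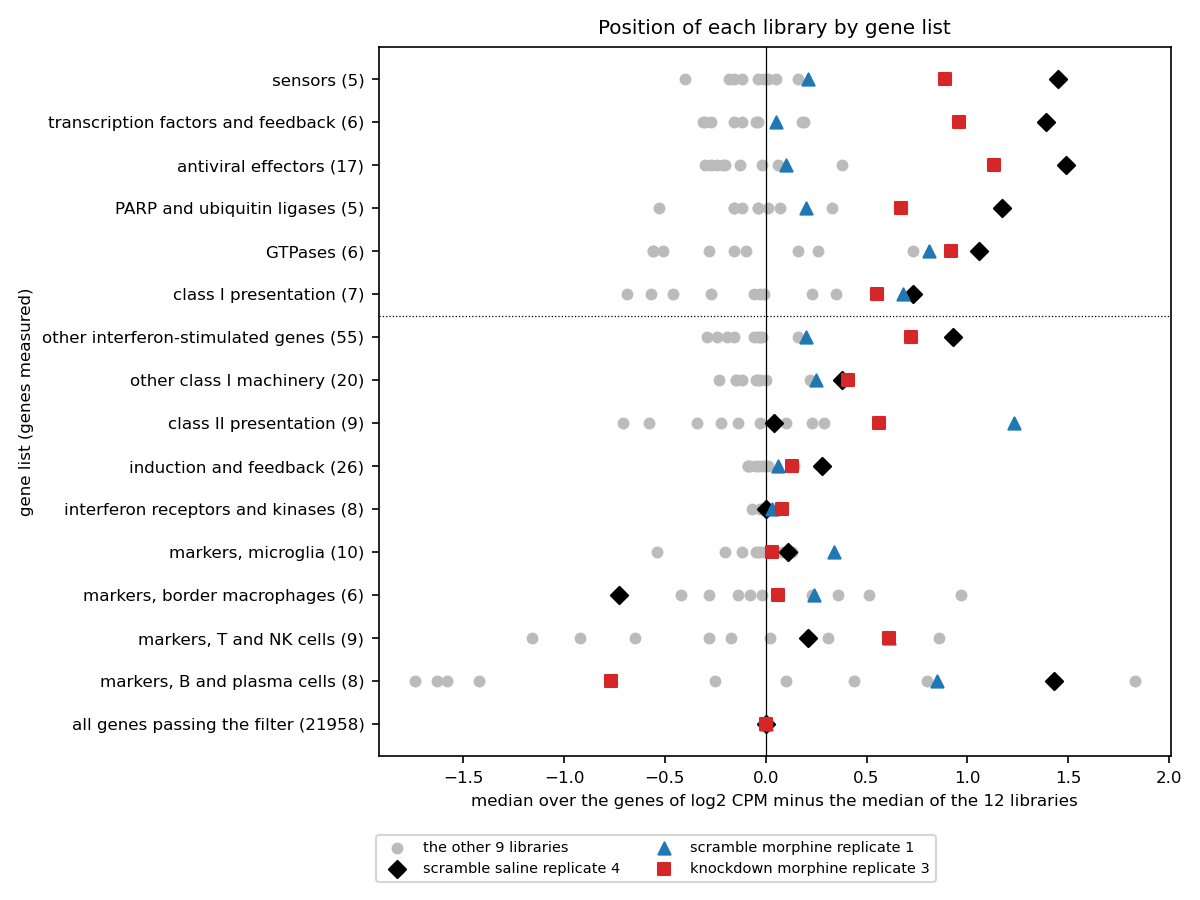
Position of each library, as the median over the genes of a list of log2 CPM minus the median of the 12 libraries, for the 6 roles above the dotted line and for other lists below it. Scramble saline replicate 4 (black diamonds) and knockdown morphine replicate 3 (red squares) lie to the right for every role, and close to 0 for the interferon receptors and kinases and for the microglial markers.

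Upstream of the members, the receptors and kinases did not share the pattern. Of 9 such genes 8 passed the filter, and every library lay within 0.08 of 0 on the same scale, with a median within-group standard deviation of 0.07 to 0.11. Ifnar1, a chain of the type I receptor, ran from 47.7 to 59.4 CPM. The 26 induction and feedback genes that passed the filter shared the pattern in part. They stood at 0.28 in scramble saline replicate 4, 0.13 in knockdown replicate 3 and between -0.09 and 0.14 in the other libraries. Their summed level was 787 CPM in scramble saline replicate 4, 743 in knockdown replicate 3 and 617 to 736 elsewhere. For transcripts of the interferons themselves, 0 of 21 genes passed the filter and 15 had 0 counts in all 12 libraries, Ifnb1 among them. Ifng, the gene of interferon gamma, had 4 counts in scramble saline replicate 4, 5 in knockdown replicate 3 and 0 in the other 10 libraries, where a count of 0 allows up to 3 counts. Ifna6 had 8 counts in knockdown replicate 3 and 0 elsewhere. These counts are too few for a level, and they cover counting error only.

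Other interferon-stimulated genes that are not members, also listed with earlier results of these data known, followed the same libraries. The list of 55, all of which passed the filter, had its median position at 0.93 in scramble saline replicate 4, 0.72 in knockdown replicate 3 and between -0.29 and 0.20 in the other 10. Their summed level was 1183 and 1034 CPM in those 2 libraries and 590 to 763 CPM elsewhere. The 20 other class I genes, such as chaperones of the loading complex and non-classical heavy chains, stood at 0.38 and 0.41. The 3 constitutive proteasome subunits that the immunoproteasome subunits replace stood at 0.12 and -0.26. The class II genes were different: scramble morphine replicate 1 was highest at 1.23, knockdown replicate 3 stood at 0.56 and scramble saline replicate 4 at 0.04. Cd74, the class II invariant chain, gave 101 CPM in scramble morphine replicate 1, 30.5 in scramble saline replicate 4 and 58.4 in knockdown replicate 3.

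Markers of cell types that could carry such transcripts were read beside these values. The summed level of 10 microglial markers was 477 to 593 CPM in scramble saline libraries. It was 472 to 662 CPM in scramble morphine and 385 to 556 in knockdown ones. The highest sum of each group was in scramble saline replicate 4, scramble morphine replicate 1 and knockdown replicate 3. Scramble saline replicate 5 was close to the first of these, at 590 CPM. The median position of these markers was 0.11 in scramble saline replicate 4, 0.34 in scramble morphine replicate 1 and 0.03 in knockdown replicate 3. The 10 endothelial markers summed to 301 CPM in scramble saline replicate 4, the lowest of its group, and 389 in knockdown replicate 3. Astrocyte markers were at -0.40 in scramble saline replicate 4. The 13 T and NK cell markers, 6 of which were at 0 counts in at least 1 library, summed to 20.5 to 33.7 CPM, with 24.2 in scramble saline replicate 4 and 20.5 in knockdown replicate 3. On the median position of the 9 that passed the filter, the same libraries stood at 0.21 and 0.61, with 0.86 in knockdown replicate 1 as the highest, so the sum and the position order the libraries differently. B and plasma cell markers, with immunoglobulin RNA the most abundant, ranged most: 726 CPM in scramble saline replicate 4, 819 in knockdown replicate 1 and 377 in scramble morphine replicate 1, but 107 in knockdown replicate 3 and 30.8 in scramble morphine replicate 5. Their part in the levels of the 46 genes was not tested.

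Scramble with morphine against scramble with saline asks how the tissue differs after morphine conditioning and extinction under the scramble vector. No gene of the 46 passed the test, and the estimates leaned to lower levels with morphine: 45 of 46 fitted log2 fold changes lay below 0, with a median of -0.46, where 50.5% of all genes tested lay below 0. With edgeR 0 members were called at an adjusted p under 0.05 (0% of all genes were called), 0 had an unadjusted p under 0.05 (3.48% of all genes) and DESeq2 called 0 of the 45 members to which it gave an adjusted p (0.0182% of all genes). No member had groups that did not overlap, in either direction, where 1.77% of all genes had every morphine library lower and 1.55% every one higher. Isg15 had a log2 fold change of -1.28 ± 0.87 (SE), with a 95% interval from -3.23 to 0.67. Ifit1 was at -1.16 ± 0.76, Oasl2 at -0.89 ± 0.70, Irf7 at -0.82 ± 0.62, Ifit3 at -0.69 ± 0.49 and Usp18 at -0.57 ± 0.62. Gbp3 was at -0.55 ± 0.43, Bst2 at -0.28 ± 0.44, Psmb8 at -0.25 ± 0.32, H2-K1 at -0.24 ± 0.38 and B2m at -0.14 ± 0.28. The smallest unadjusted p-values outside these genes were those of Dhx58, -0.75 ± 0.35, and Zbp1, -1.24 ± 0.63. All of these had an edgeR adjusted p of 0.999.

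That direction rested on scramble saline replicate 4. Without it 25 of 46 fold changes lay below 0 and the median was -0.02. Without it and knockdown replicate 3 the values were the same, 25 of 46 and -0.02, with 50% of all genes below 0 and 0 members and 0% of all genes called. In that fit, Isg15 was at 0.27 ± 0.30, Ifit1 at 0.04 ± 0.38, Irf7 at 0.10 ± 0.18 and Usp18 at 0.25 ± 0.25 on the log2 scale. Zbp1 was the lowest member at -0.68 ± 0.37, and all 6 GTPases lay below 0 with a median of -0.28. Leaving out the 2 libraries was chosen after seeing the data.

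Knockdown against scramble, both with morphine, compares the vector labelled as a 5-HT6R knockdown with the scramble vector in animals that had morphine; as given above, Htr6 RNA overlapped between these groups. Most fitted values were above 0: 8 of 46 lay below it, the median was 0.21 and 49.3% of all genes tested lay below 0. With edgeR 0 members were called (0% of all genes), 0 had an unadjusted p under 0.05 (12% of all genes) and DESeq2 called 0 of 45 (0.828% of all genes). The groups overlapped for every member, where 3.26% of all genes had all knockdown libraries lower and 2.59% all higher. Ifit1 was at 1.22 ± 0.76 (95% interval -0.50 to 2.94; edgeR adjusted p = 0.559), Isg15 at 1.14 ± 0.87 (0.644), Oasl2 at 0.88 ± 0.70 (0.662) and Ifit3 at 0.60 ± 0.49 (0.674). Irf7 was at 0.43 ± 0.62, Gbp3 at 0.37 ± 0.43 and Usp18 at 0.20 ± 0.62. For class I the estimates lay near 0: H2-K1 at 0.01 ± 0.38, B2m at -0.10 ± 0.28 and Psmb8 at -0.10 ± 0.32, as did Bst2 at 0.01 ± 0.44. Ifitm3 at 0.54 ± 0.30 had the smallest p (edgeR adjusted p = 0.505), and Dhx58 was at 0.50 ± 0.35.

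Several libraries moved this comparison. Without knockdown replicate 3 the number below 0 was 31 of 46 and the median -0.05, and without scramble morphine replicate 1 they were 1 and 0.33. Leaving out knockdown replicate 2 gave 2 and 0.37, and leaving out knockdown replicate 5 gave 4 and 0.30. Without scramble saline replicate 4 and knockdown replicate 3 together, 30 of 46 lay below 0 (49.3% of all genes) with a median of -0.04 and 0 members called (0.0224% of all genes). By role, that fit put all 7 class I genes and all 6 GTPases below 0, with medians of -0.27 and -0.19, and 7 of 17 effectors. Ifit1 remained the highest of the members at 0.68 ± 0.38 (edgeR adjusted p = 0.599) and Irgm1 was the lowest at -0.71 ± 0.24 (0.419).

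**Figure D4:**
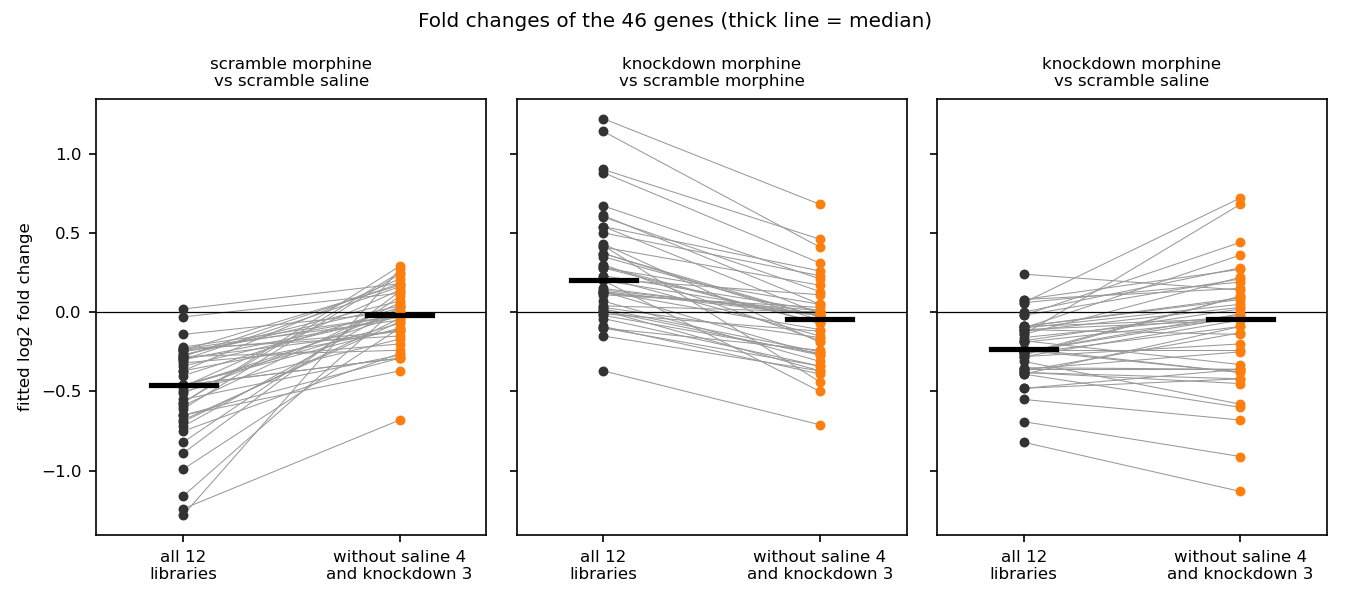
Fitted log2 fold change of each of the 46 genes in the 3 comparisons, with all 12 libraries (dark points) and without scramble saline replicate 4 and knockdown replicate 3 (orange points); grey lines join a gene and thick lines are medians. The medians go from -0.46 to -0.02, from 0.21 to -0.04 and from -0.23 to -0.04.

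Knockdown with morphine against scramble with saline combines the difference in virus and in drug, and shares its libraries with the comparisons above. Of 46 fold changes 40 lay below 0 (50.4% of all genes), with a median of -0.23. No member was called by edgeR, which called 0.0137% of all genes, or by DESeq2 (0 of 45; 0.831% of all genes), and 1 member had an unadjusted p under 0.05 (9.35% of all genes). Groups of every member overlapped, where 2.16% of all genes had all knockdown libraries lower and 2.18% all higher. The 1 member was Irgm1 at -0.69 ± 0.31 (95% interval -1.38 to -0.01; edgeR adjusted p = 0.532), with 3 of its 4 knockdown libraries below all 4 saline ones. Ifit2, which limits translation of viral RNA, was next at -0.48 ± 0.28 (0.640). Ifit1 was at 0.06 ± 0.75, Oasl2 at -0.02 ± 0.69, Ifit3 at -0.09 ± 0.49 and Isg15 at -0.14 ± 0.85, whose interval ran from -2.04 to 1.76. Irf7 was at -0.39 ± 0.62, Usp18 at -0.36 ± 0.62, Psmb8 at -0.35 ± 0.32, Bst2 at -0.28 ± 0.44, B2m at -0.24 ± 0.28, H2-K1 at -0.23 ± 0.38 and Gbp3 at -0.18 ± 0.42.

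The number below 0 was 14 of 46, with a median of 0.19, without scramble saline replicate 4, and 45, with a median of -0.56, without knockdown replicate 3. Without knockdown replicate 2 the median was -0.05 and without knockdown replicate 5 it was -0.09. Without scramble saline replicate 4 and knockdown replicate 3 together, 28 of 46 lay below 0 (49.7% of all genes), the median was -0.04, and 0 members and 0% of all genes were called. All 6 GTPases and all 7 class I genes were below 0 in this fit as in the fit of all libraries, with medians of -0.51 and -0.38 here and -0.37 and -0.24 there. Of the 17 effectors 4 lay below 0 here and 12 there. Zbp1 was the lowest member at -1.13 ± 0.41 (edgeR adjusted p = 0.447) and Ifit1 the highest at 0.72 ± 0.41 (0.63). Irgm1 was at -0.91 ± 0.26 (edgeR adjusted p = 0.393) and Isg15 at 0.68 ± 0.32 (0.543).

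Genes of the pathway outside the 46 also gave 0 calls with edgeR in the 3 comparisons: 8 receptors and kinases, 26 induction and feedback genes, 55 other interferon-stimulated genes, 20 other class I genes, 3 constitutive proteasome subunits and 9 class II genes. Unadjusted p-values under 0.05 were found, in the order of the comparisons, for 0, 1 and 1 receptors and kinases, 2, 3 and 2 induction and feedback genes, 2, 0 and 4 other class I genes, 0, 0 and 1 proteasome subunits and 0 class II genes, and for 3, 2 and 2 of the 55 other interferon-stimulated genes. Over all genes tested the shares were 3.48, 12 and 9.35%. Gbp5 was at -0.65 ± 0.26 with morphine against saline (edgeR adjusted p = 0.999), and Ube2l6, the conjugating enzyme for ISG15, at 0.62 ± 0.25 with knockdown against scramble (0.368). Among induction and feedback genes Traf3, an adaptor of the sensor pathway, was at 0.46 ± 0.13 with knockdown against scramble (0.275) and Irf3 at 0.29 ± 0.10 against saline (0.378). Ifngr2, a chain of the interferon gamma receptor, was at -0.24 ± 0.08 with knockdown against scramble (0.308), and Calr, a chaperone of class I loading, at 0.22 ± 0.06 against saline (0.339). Border macrophage markers had the smallest adjusted p of the cell type lists: Mrc1 was at 1.16 ± 0.19 with knockdown against saline (edgeR adjusted p = 0.107). Their summed level was 18.2 to 25.1 CPM with knockdown, 8.98 to 12.3 in scramble saline and 7.92 to 15.1 in scramble morphine libraries. On the sum, knockdown replicate 3 stood at 20.1 CPM, second of the 12 libraries after knockdown replicate 1 at 25.1, and scramble saline replicate 4 at 10.3. On the median position knockdown replicate 3 stood at 0.06, the lowest of its group, and scramble saline replicate 4 at -0.73. The sum and the position thus order the knockdown libraries differently. The part of these markers in the levels of the 46 genes was not tested.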

How the data were processed

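RNA was measured in 12 libraries of mouse medial prefrontal cortex. The authors deposited whole-number read counts per gene, and no normalized values were used. The submitters' processing notes name mm10, cutadapt 1.9, HISAT2 2.0.4 and StringTie 1.3.4d without roles; the annotation release and any strand setting of the counting step are likewise not given here. Groups came from the labelled treatment and replicate numbers from the titles. Of 55401 gene IDs, 55141 matched a symbol, and coordinates came from GENCODE M21.

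Counts were tested in R 4.3.3 with edgeR 4.0.16: filterByExpr (minimum count 10) left 21958 genes, TMM factors scaled the libraries, and all 12 entered 1 robust quasi-likelihood fit of group means, with 9 degrees of freedom left and a biological coefficient of variation of 23.2%. P-values were two-sided and adjusted by Benjamini-Hochberg over all genes tested at 0.05. Intervals cover 95%. Alternatives used DESeq2 1.42.0, limma 3.58.1 voom with sample weights, other scalings and filters, the rRNA locus share as a covariate, a replicate block and each library left out. Replicates differed by more than sampling noise (chi-square per gene of at least 13.4). Scramble saline replicate 4 gave 43, 40.7 and 56.3 against saline replicates 2, 3 and 5. Those libraries gave 13.4, 21.2 and 23.2 among themselves. Scramble morphine pairs ran from 16.1 to 24.3 and knockdown pairs from 41.9 to 96, the last between replicates 1 and 5. How much of these distances came from the members was not tested. The steps were tested on simulated data.

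The 46 members and all lists were chosen with earlier results of these data known. Fold changes were given for Ifit1, Ifit3, Isg15, Irf7, Usp18, Oasl2, Bst2, Gbp3, Psmb8, H2-K1 and B2m and for the 2 other members with the smallest p; of other lists, at most 3 genes with the smallest p and a mean of at least 1 CPM. Promoter windows of Irf7 and Psmb9 overlap annotated transcripts and are not printed; that of Ifit1, which is printed, also ends inside its annotated gene; that of Usp18 was not used.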

Additional observations from a re-analysis of the deposited data

Results flagged for a closer look

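Within groups of 4 libraries, a library was singled out where its gap to the nearest other library, divided by the range of the group, was above Dixon's 95% critical value. Chance singles out about 1 in 20 independent groups. These combinations share the same libraries, and the genes were chosen with earlier results of these data known. The count below therefore cannot be set against that rate. Of 138 gene and group combinations, 18 were singled out. In 13 of them the library was scramble saline replicate 4, at the top of its group. The gap ratios were 0.904 for Irf7, 0.929 for Irf9, 0.838 for Stat2, 0.932 for Isg15, 0.843 for Ifit1, 0.844 for Ifit3 and 0.832 for Ifit3b. They were 0.916 for Oasl2, 0.926 for Samd9l, 0.971 for Xaf1, 0.887 for Parp14, 0.956 for Dtx3l and 0.852 for Trim30a. No GTPase or class I gene was among these 13. In knockdown replicate 3 only Oas2 was singled out, with 0.975; knockdown replicate 1 ranked 3 of the 12 libraries for 16 members. In scramble morphine replicate 1, Zbp1 (0.851) and Gbp7 (0.915) were highest. At the low end, Eif2ak2 in scramble morphine replicate 4 had 0.862 and Ifit3b in scramble morphine replicate 5 had 0.836.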

How the results depend on the processing

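No member was called under any alternative run: DESeq2, limma voom with sample weights, DESeq2 size factors or library totals as scaling, no filter or a mean of at least 1 CPM, the rRNA locus share as a covariate, the compared groups alone, the replicate block, each library left out, and a fit that left out both saline replicate 4 and knockdown replicate 3, which was chosen after seeing the data. The smallest edgeR adjusted p of a member under a left-out library was 0.211, and limma voom gave 0.166. With 4 libraries a group, a p above the threshold does not show that levels were the same, and no depth limit applies, since each member had at least 42 counts in every library.

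For morphine against saline with scramble, the number of genes called over the whole table was 0, and 4 with DESeq2, 1 with the compared groups alone and 1 with the replicate block. Members below 0 were 25 of 46 without both libraries and 25 to 46 with single libraries left out. Without both libraries the log2 fold changes turned to 0.0023 for B2m, 0.18 for Bst2, 0.04 for Ifit1, 0.10 for Irf7, 0.27 for Isg15, 0.13 for Oasl2 and 0.25 for Usp18. With single libraries left out they ran from -0.40 to 0.0027 for B2m, -0.47 to 0.18 for Bst2, -1.43 to 0.04 for Ifit1, -1.04 to 0.10 for Irf7, -1.58 to 0.27 for Isg15, -1.13 to 0.13 for Oasl2 and -0.83 to 0.25 for Usp18; all 7 turned without scramble saline replicate 4.

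For knockdown against scramble with morphine, all genes called were 0, and 164 with DESeq2, 1 with limma voom, 2 with no filter, 2 with the replicate block, 5 without both libraries and 0 to 375 with single libraries left out, the 375 without knockdown replicate 5. Members below 0 were 8, and 14 with library totals, 2 with limma voom, 2 with the covariate, 2 with the replicate block, 30 without both libraries and 1 to 31 with single libraries left out. Without both libraries the estimates were -0.37 for Bst2, -0.05 for Gbp3, -0.27 for H2-K1, -0.19 for Irf7 and -0.50 for Usp18. Library totals gave -0.06 for Bst2 and -0.06 for H2-K1, and no filter gave -0.0034 and -0.00036. Limma voom gave 0.03 for B2m and 0.10 for Psmb8, the covariate 0.14 for Psmb8, and the replicate block 0.05 and 0.11 for B2m and Psmb8. Single libraries left out gave -0.24 to 0.16 for B2m, -0.38 to 0.19 for Bst2, -0.06 to 0.63 for Gbp3, -0.27 to 0.33 for H2-K1, -0.20 to 0.62 for Irf7, -0.34 to 0.18 for Psmb8 and -0.51 to 0.43 for Usp18.

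For knockdown and morphine against scramble and saline, all genes called were 3, and 147 with DESeq2, 5 with the compared groups alone, 5 with no filter, 0 with library totals, 0 with limma voom, 0 with the covariate, 0 with the replicate block, 0 without both libraries and 0 to 55 with single libraries left out, the 55 without knockdown replicate 5. Members below 0 were 40, and 16 with limma voom, 21 with the covariate and 14 to 45 with single libraries left out. Limma voom turned Bst2 to 0.14, Gbp3 to 0.07, Ifit3 to 0.43, Irf7 to 0.30, Isg15 to 1.0, Oasl2 to 0.74 and Usp18 to 0.30. The covariate gave 0.09 for Gbp3, 0.35 for Ifit3, 0.24 for Irf7, 0.60 for Isg15, 0.49 for Oasl2 and 0.22 for Usp18. Without both libraries Ifit3 was at 0.09, Isg15 at 0.68 and Oasl2 at 0.44. Single libraries left out gave -0.66 to 0.19 for Bst2, -0.61 to 0.10 for Gbp3, -0.48 to 1.26 for Ifit1, -0.56 to 0.56 for Ifit3, -1.01 to 0.53 for Irf7, -0.86 to 1.41 for Isg15, -0.58 to 1.01 for Oasl2 and -1.07 to 0.46 for Usp18. The cause was not tested where the alternative did not itself remove a library.

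Correlations of deviations over all genes between same-numbered libraries ran from -0.019 to 0.127, and between differently numbered ones from -0.18 to 0.121. Over the members they ran from -0.379 to 0.728 and from -0.689 to 0.789. Over all genes, same-numbered libraries gave 0.127 for replicates 1, 0.066 for replicates 2 and 0.034 for replicates 4. Replicates 5 gave 0.047, 0.086 and 0.112. In each of these pairs, no other library of the second group correlated more highly with the library of the first group. Replicates 3 gave -0.006, -0.007 and -0.019, and there other libraries did. The main fit took no account of the numbers, and whether they pair the libraries was not tested. With the replicate block, knockdown against saline gave 0.19 for Ifit3, 0.07 for Irf7, 0.65 for Isg15, 0.38 for Oasl2 and 0.0024 for Usp18. In that comparison 28 of 46 members lay below 0 with a median of -0.05, against 40 and -0.23 in the main fit. The block changed no call among the members at an adjusted p under 0.05. With it 13, 4 and 6 members had an unadjusted edgeR p under 0.05 in the 3 comparisons, against 0, 0 and 1 in the main fit. The share of all genes below that p with the block is not given here.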
